A study of Mus musculus with 6 samples.

Results

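The metallothionein genes Mt1, Mt2 and Mt3 and the aldolase gene Aldoc were followed in single cells of the mouse ventromedial hypothalamus (VMH), a nucleus that regulates energy balance. They are 4 of the 21926 genes in the count tables and were chosen by name, because earlier readings of the same counts had shown them in wells holding neurons. That they are present in these wells is therefore a description and not a finding. They were counted in 530 of 576 wells, those with at least 500 genes with a count and under 25% of counts in mitochondrial genes.

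The study compared 3 male and 3 female mice at postnatal day 10, each on 1 plate of 96 wells. All 6 mice had the genotype Ai14f/+;Sf1-Cre, in which Cre from the Sf1 (Nr5a1) promoter switches on a reporter, and cells were sorted by fluorescence. Cre marks a lineage, so a sorted cell need not still express Nr5a1, and no mouse without Cre was analysed here. Kept wells numbered 93, 84 and 92 in males 1 to 3 and 88, 87 and 86 in females 1 to 3. Their summed counts were 783270, 535469 and 774670 in males and 441260, 185654 and 591768 in females, so female 2 was the shallowest. The plates shared their 96 well names by design, and 0 kept wells had identical counts.

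The labelled tissue was checked against marker genes. All 12 neuron markers and all 8 VMH neuron markers had counts in every mouse, at summed levels of 5731 to 7787 and 1214 to 2257 CPM (counts of a gene relative to all counts of the same wells, in the usual scaled unit). At least 3 neuron markers had a count in 507 of the 530 wells. The 19 astrocyte markers summed to 512 to 2221 CPM, highest in female 1, and 11 to 19 of them had a count. Among them, Clu alone averaged 525 ± 119 CPM and Apoe 237 ± 379 CPM (SD, n = 6 mice). Markers of other cells were lower: 9.34 to 47.6 CPM for 10 microglial genes (2 to 3 with a count), 24.3 to 70.0 CPM for 9 endothelial and mural genes (2 to 4), 37.0 to 89.6 CPM for 7 tanycyte and ependymal genes (4 to 6), and 63.8 to 190 CPM for 10 oligodendrocyte lineage genes (3 to 9). The rule on marker counts called 9 kept wells astrocyte-like: at least 6 of the 19 astrocyte markers and no count of the 12 neuron markers. Of these, 1 was in male 1, 1 in male 2 and 7 in female 1.

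Metallothioneins are short proteins rich in cysteine that bind zinc and copper and buffer their free levels in the cell. Mt1 and Mt2 are found in most tissues, are induced by metals and by glucocorticoids and, in the brain, are best known from astrocytes. Mt3 is the brain form, first described as a growth inhibitory factor, and is linked to the zinc of glutamatergic neurons. Aldoc encodes aldolase C, the brain isoform of the glycolytic enzyme that splits fructose bisphosphate, and is widely used as a marker of astrocytes and of stripes of cerebellar Purkinje cells.

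The 3 metallothionein genes lie together on the + strand of chromosome 8 (GENCODE vM21, mm10). Mt3 is at 94152607 to 94154146, Mt2 at 94172664 to 94173568 and Mt1 at 94179082 to 94180327, each with 3 exons. From the start of Mt3 to the end of Mt1 the cluster spans 27721 bases, and 5514 bases separate Mt2 from Mt1. Aldoc, with 9 exons, is at 78322968 to 78327781 on the + strand of chromosome 11. An antisense gene on the minus strand, Gm45774, overlaps Mt2, and since nothing read here names the strand used in counting, reads of the pair cannot be told apart.

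Mt1 and Mt2 have coding sequences of 183 bases that are 79.2% identical. Their longest shared exact run, also over the whole transcripts, is the first 20 coding bases, printed to show how little sequence the pair has in common without a mismatch:
Mt1 and Mt2: atggaccccaactgctcctg
The corresponding run was 27 bases for Mt1 and Mt3, 20 bases for Mt2 and Mt3, and 26 bases for Aldoc and its paralog Aldoa. The sources used here do not say how reads matching several genes were counted, so a small exchange of reads between these genes is uncertain.

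The promoters are shown because the genes varied together across wells and metallothionein genes are known targets of MTF-1, the zinc-sensing transcription factor that binds metal response elements. Each window runs from 250 bases before to 50 bases after the RefSeq start (GRCm38.p6, all on the + strand). Capitals mark matches to the core of the element, TGCACNC or TGCGCNC, on either strand; the motifs do not overlap each other in these windows.
Mt1, chr8:94178839-94179138: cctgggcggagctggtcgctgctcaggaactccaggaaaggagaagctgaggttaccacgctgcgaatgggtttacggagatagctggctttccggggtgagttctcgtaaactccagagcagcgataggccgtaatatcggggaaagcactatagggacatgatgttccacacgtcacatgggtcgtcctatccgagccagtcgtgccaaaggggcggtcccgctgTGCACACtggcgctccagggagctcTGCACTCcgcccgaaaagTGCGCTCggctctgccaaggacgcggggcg
Mt2, chr8:94172368-94172667: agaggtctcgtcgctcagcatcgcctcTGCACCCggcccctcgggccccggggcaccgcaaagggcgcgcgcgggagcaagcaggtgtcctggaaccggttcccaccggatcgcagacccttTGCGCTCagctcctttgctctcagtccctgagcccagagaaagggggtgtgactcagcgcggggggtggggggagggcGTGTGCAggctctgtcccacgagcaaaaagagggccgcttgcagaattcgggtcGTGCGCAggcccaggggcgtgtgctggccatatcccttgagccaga
Mt3, chr8:94152357-94152656: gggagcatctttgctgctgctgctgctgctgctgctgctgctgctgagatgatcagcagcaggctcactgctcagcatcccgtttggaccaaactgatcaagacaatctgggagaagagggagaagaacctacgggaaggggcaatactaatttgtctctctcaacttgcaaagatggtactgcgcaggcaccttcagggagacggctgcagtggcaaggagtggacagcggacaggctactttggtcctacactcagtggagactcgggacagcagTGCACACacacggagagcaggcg
Aldoc, chr11:78322823-78323122: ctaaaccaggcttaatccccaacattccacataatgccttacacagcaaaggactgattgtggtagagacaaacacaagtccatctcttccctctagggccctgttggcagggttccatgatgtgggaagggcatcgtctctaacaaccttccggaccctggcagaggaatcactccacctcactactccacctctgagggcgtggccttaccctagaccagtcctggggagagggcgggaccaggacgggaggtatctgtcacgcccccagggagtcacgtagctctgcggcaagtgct
The Mt1 window held 3 matches, at positions -23, 2 and 20 from the start. The Mt2 window held 4, at positions -223 and -128 on its own strand and at -50 and 4 on the opposite strand. The Mt3 window held 1, at position 27, and the 2 Aldoc windows in the table held 0. Of 32851 promoter windows of the same length, 25.7% held at least 1 match, 1.97% at least 3 and 0.517% at least 4. A match is a string of letters and was not tested as a site.

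Mt3 had a count in most wells of every mouse. Its level was 665, 517 and 679 CPM in males 1 to 3 and 888, 624.8 and 546 CPM in females 1 to 3. It had a count in 87.1%, 88.1% and 85.9% of male wells and in 88.6%, 64.4% and 80.2% of female wells. Female 1 was highest in level and female 2, the shallowest plate, was lowest in share, and the sexes overlapped in both.

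Aldoc reached 517, 551 and 423 CPM in males and 761, 458 and 443 CPM in females. It had a count in 78.5%, 81.0% and 80.4% of male wells and in 86.4%, 49.4% and 75.6% of female wells. As for Mt3, female 1 stood highest and the sexes overlapped.

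Mt1 stood at 283, 226 and 321 CPM in males and 512, 280 and 167 CPM in females, and 51.6%, 38.1% and 51.1% of male wells and 69.3%, 34.5% and 43.0% of female wells had a count. Mt2 was the sparsest, at 63.8, 74.7 and 86.5 CPM in males and 118, 70.0 and 27.0 CPM in females. It had a count in 21.5%, 16.7% and 23.9% of male wells and 31.8%, 11.5% and 14.0% of female wells. Both the highest and the lowest mouse were female for Mt1 and for Mt2. The highest mouse was 4.36 times the lowest for Mt2 and 3.06 times for Mt1, against 1.80 times for Aldoc and 1.72 times for Mt3.

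Divided by the length of the transcript, the levels were 1219 ± 246 CPM per kilobase for Mt3, 544 ± 214 for Mt1, 189 ± 44.9 for Aldoc and 143 ± 58.1 for Mt2 (SD, n = 6 mice). The ranges of mean ± 1 SD overlapped for Aldoc and Mt2 and were apart for Mt3 and Mt1 and for Mt1 and Aldoc. All were measured in the same mice, and differences within a mouse were not tested. If the counts are of transcript ends and not of whole transcripts, which the sources used here do not say, length should not enter. In CPM, without the division, Aldoc was above Mt1 in every mouse. The order of Mt1 and Aldoc given here therefore rests on the division by length, and no ranking of these genes is drawn from it.

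**Figure D1:**
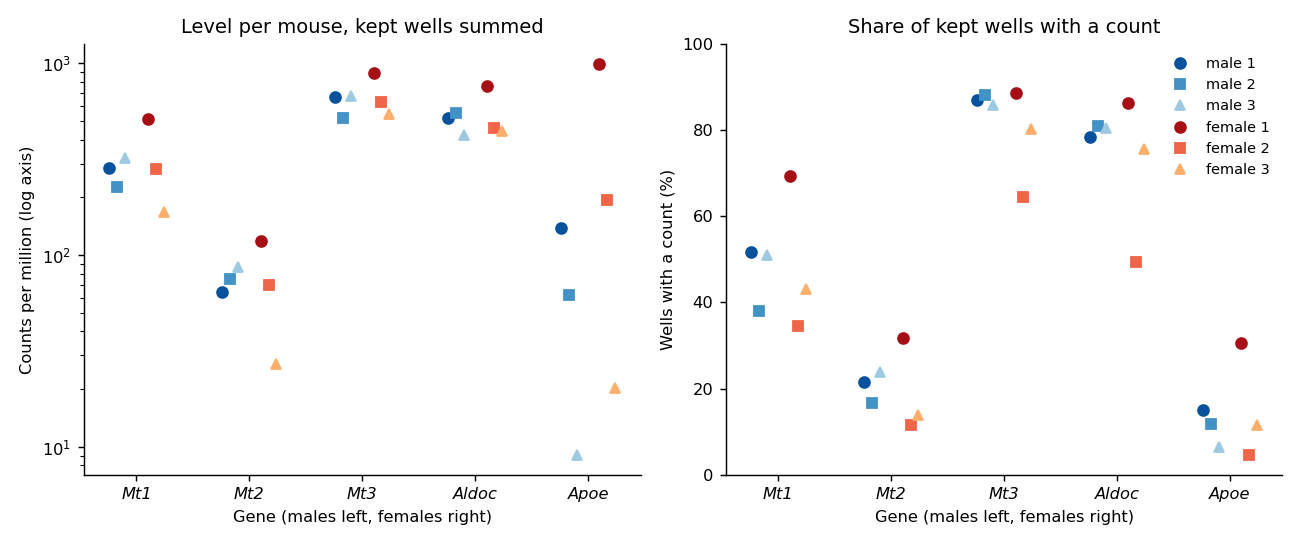
Left, level of each gene per mouse in CPM on a log axis, with males left and females right of each gene name; right, percent of kept wells with a count. Points are single mice. The 4 genes stayed within 4.36 times between mice, while Apoe ran from 9.04 to 997 CPM.

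Males and females were compared in an edgeR quasi-likelihood fit of the counts summed per mouse, over 6794 genes. The log2 difference, male over female, was -0.19 (SE 0.368) for Mt1, 0.11 (SE 0.460) for Mt2, -0.13 (SE 0.242) for Mt3 and -0.14 (SE 0.259) for Aldoc, each with an edgeR adjusted p of 0.999. Their 95% intervals ran from -0.91 to 0.53, from -0.80 to 1.01, from -0.60 to 0.35 and from -0.65 to 0.37, and differences within them were not detectable with 3 mice of each sex. In this fit 0 of the 6794 genes (0%) passed; 167 had an unadjusted p under 0.05, and DESeq2 called 4. Without female 1, Mt1, Mt3 and Aldoc had the opposite sign, at 0.37, 0.11 and 0.17. Shares of wells with a count differed between males and females by -2.01 percentage points for Mt1, 1.61 for Mt2, 9.27 for Mt3 and 9.504 for Aldoc, with two-sided exact permutation p of 0.9, 0.9, 0.4 and 0.7, where the smallest p that 3 against 3 allows is 0.1.

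Wells differed in how many of the 4 genes they showed. Of 530 wells, 78 had counts of all 4, 144 of 3, 187 of 2, 79 of 1 and 42 of 0. The share with all 4 was 17.2%, 13.1% and 18.5% in males and 25%, 5.75% and 8.14% in females. Female 1 had the highest share although its counts were fewer than those of each male, and female 2, the shallowest, had the lowest.

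Within each mouse the 4 genes varied together across wells. Levels per well were taken as log2 of counts per 10000 plus 1. The Pearson correlation of Mt1 with Mt2 was 0.54, 0.56 and 0.51 in males 1 to 3 and 0.53, 0.39 and 0.45 in females 1 to 3, over 84 to 93 wells each, with a mean of 0.50. The mean correlation over the 6 mice was 0.33 for Mt1 and Aldoc, 0.31 for Mt1 and Mt3, 0.27 for Mt3 and Aldoc, 0.27 for Mt2 and Mt3 and 0.23 for Mt2 and Aldoc. Each of the 6 pairs was positive in 6 of 6 mice. Wells of 1 mouse share a plate, and a deep well shows more genes, so these values carry no p.

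Detection was set side by side in the same way. Mt2 had a count in 33.1% ± 6.19 of wells with a count of Mt1, against 7.63% ± 3.92 of wells without one (SD, n = 6 mice), higher in 6 of 6 mice. Aldoc had a count in 79.9% ± 11.5 of wells with Mt3 and in 51.7% ± 9.34 of wells without it, also higher in 6 of 6 mice. Mt2 and Mt3 were the exception among the 6 pairs: Mt3 had a count in 93.1% ± 9.30 of wells with Mt2 and 79.9% ± 10.1 of wells without it, higher in 5 of 6 mice, and in female 3 the shares were 75% and 81.1%.

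Depth was then made equal by drawing 1986 counts from each well and leaving out shallower wells, 38 of them in female 2 and 12 in female 1. This also removed the 9 astrocyte-like wells, whose totals reached at most 1450 counts. Leaving out those 9 wells alone gave a mean correlation of 0.43 for Mt1 and Mt2 and 0.14 for Mt2 and Aldoc. In the thinned wells the mean correlations were smaller than over all kept wells. They were 0.30 for Mt1 and Mt2, 0.16 for Mt1 and Mt3, 0.14 for Mt3 and Aldoc, 0.13 for Mt1 and Aldoc, 0.13 for Mt2 and Mt3 and 0.08 for Mt2 and Aldoc. Mt1 with Mt2, and Mt3 with Aldoc, stayed positive in 6 of 6 mice, while the other pairs were positive in 4 or 5. Thinning also left fewer counts: Mt2 had a count in 4.65% to 9.21% of a mouse's thinned wells, against 11.5% to 31.8% of its kept wells. The part of this loss of counts in the smaller correlations was not tested. At this depth Mt2 was found in 16.7% ± 4.89 of wells with Mt1, against 2.74% ± 1.52 of wells without it, higher in 6 of 6 mice. Aldoc was found in 55.0% ± 10.4 of wells with Mt3, against 44.6% ± 10.4 of wells without it, higher in 5 of 6 mice.

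The genes most like each member were ranked by the mean within-mouse correlation among 1641 genes with a count in at least 20% of wells of every mouse. Over all kept wells Mt1 was the closest gene to Mt2, to Mt3 and to Aldoc. Among the ranked genes, which Mt2 was too sparse to join, the closest to Mt1 were A230065H16Rik at 0.33, Aldoc at 0.33 and Mt3 at 0.31. Cpe, encoding the peptide-processing enzyme carboxypeptidase E, stood at 0.27 with Mt1 and 0.26 with Mt2. Nefl, the light neurofilament subunit, stood at 0.24 with Mt3, and Gapdh, a glycolytic enzyme, at 0.23 with Aldoc. The remaining genes among the closest 5 were Prnp (0.25 with Mt1), Ddah1 (0.22 with Mt2), Cmbl (0.23 with Mt3) and Ctsd (0.25 with Aldoc), and A230065H16Rik was also among them for Mt3 (0.23) and Aldoc (0.22). The median over all ranked genes was 0.002 for Mt1, -0.03 for Mt2 and 0.02 for Mt3 and for Aldoc. These values include the astrocyte-like wells and are not at equal depth. In the thinned wells Mt3 stood at 0.20 with Cmbl, 0.17 with Nefl and 0.16 with Mt1. Aldoc stood there at 0.14 with Mt3 and 0.13 with Mt1, and at 0.04 with Ctsd. Cpe fell to 0.05 with Mt1 and 0.07 with Mt2, while Mt1 kept 0.30 with Mt2 and 0.21 with A230065H16Rik.

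**Figure D2:**
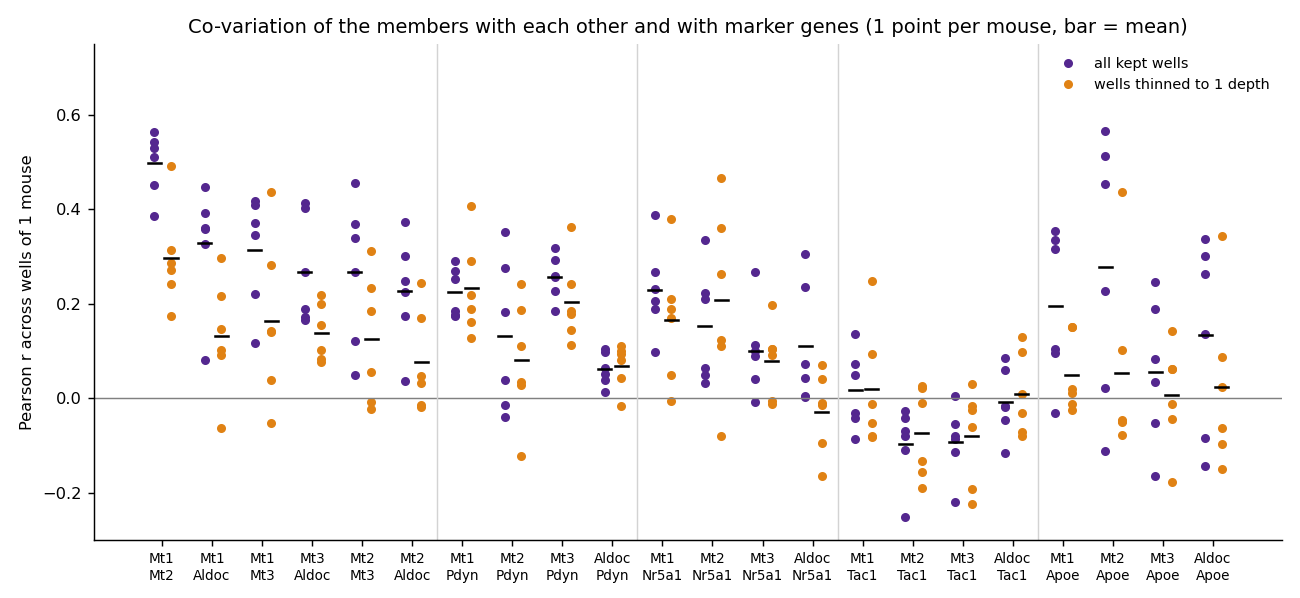
Pearson correlation across the wells of 1 mouse for the 6 pairs of the 4 genes and for each gene with Pdyn, Nr5a1, Tac1 and Apoe, before (purple) and after (orange) thinning to 1986 counts per well. Points are mice and bars are means; Mt1 with Mt2 has the highest mean, and Tac1 lies around 0 or below.

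Apoe, the lipid carrier made by astrocytes, and Slc1a3, the astrocytic glutamate transporter, were used to follow RNA of glial origin. Apoe stood at 138, 61.6 and 9.04 CPM in males and 997, 194 and 20.3 CPM in females. Slc1a3 was rare, at 3.83, 5.60 and 0 CPM in males and 34.0, 0 and 3.38 CPM in females. Of female 1's Apoe counts, 92.3% came from its 7 astrocyte-like wells, and 1 well held 33 of the 36 Apoe counts of female 2. Apoe was lowest in male 3 and female 3.

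The counts of each gene per count of Apoe were set side by side in both kinds of well. Per count of Apoe there were 15.7 counts of Mt3 in the 521 other kept wells, against 0.042 in the 9 astrocyte-like wells. For Aldoc the ratios were 12.4 against 0.058, for Mt1 6.86 against 0.072 and for Mt2 1.57 against 0.048. The exact 95% intervals, which cover counting error only, were 13.2 to 18.8 against 0.0258 to 0.0649 for Mt3 and 1.26 to 1.97 against 0.0305 to 0.0723 for Mt2. At the astrocyte-like ratio the 136 Apoe counts of the 521 wells correspond to 0.268% of their Mt3 counts, 0.469% of their Aldoc counts, 1.05% of their Mt1 counts and 3.05% of their Mt2 counts. At the upper bound of the ratio in female 1's left-out wells these become 0.413% for Mt3, 1.60% for Aldoc, 2.77% for Mt1 and 10.6% for Mt2. The ratio varied between mice: in the other kept wells Mt3 had 16.7, 17 and 75.1 counts per Apoe count in males and 11.1, 3.22 and 26.9 in females, and Mt2 had 1.52, 2 and 9.57 in males and 1.15, 0.361 and 1.33 in females. The astrocyte-like ratio rests on 9 wells, 7 of them of female 1 and all chosen for astrocyte markers, Apoe among them.

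The other wells had a median of 5972 counts, against 973 in the astrocyte-like wells, and less of each gene per count. Levels in the 521 other wells and the 9 astrocyte-like wells were 64.8 and 2597 CPM for Mt2, 282 and 3896 CPM for Mt1, 509 and 3139 CPM for Aldoc and 646 and 2273 CPM for Mt3. The mix of metallothioneins differed too. Mt3 made up 65.0% (95% exact interval 63.4% to 66.7%) of the 3281 metallothionein counts in the other wells, against 25.9% (16.8% to 36.9%) of 81 in the astrocyte-like wells. Mt2 made up 6.52% (5.70% to 7.42%) against 29.6% (19.99% to 40.8%). In the other wells of single mice Mt3 was 66.4%, 64.6% and 62.5% of the mix in males and 61.3%, 64.1% and 73.7% in females. The intervals cover counting error over pooled wells and not the spread between mice. Since 7 of the 9 wells were from female 1, no test across mice was made.

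Levels in wells with no count of Apoe or Slc1a3, a choice made after seeing the data, are set beside those of all kept wells. Mt3 stood at 684, 485 and 674 CPM there in males and 872, 639 and 565 CPM in females. Mt2 moved most: in male 2 it was 42.5 CPM in these wells, against 74.7 CPM in all kept wells and 59.9 CPM without the astrocyte-like well. Wells of male 2 with Apoe held 20 Mt2 counts. Of these 8 were in its astrocyte-like well, which gave 20% of its Mt2 counts, and 12 were in the well highest in Mt2. In female 1 the astrocyte-like wells gave 25% of Mt2, 11.5% of Mt1, 5.06% of Aldoc and 3.57% of Mt3 counts. The mean correlation of Mt1 with Mt2 was 0.46 in the wells with neither glial gene.

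Over all kept wells the mean correlation with Apoe was 0.28 for Mt2 (-0.11 to 0.57 over the 6 mice), 0.20 for Mt1 (-0.03 to 0.35), 0.13 for Aldoc (-0.14 to 0.34) and 0.06 for Mt3 (-0.16 to 0.25). Without the 9 astrocyte-like wells it was 0.02 for Mt2 (-0.11 to 0.23), 0.02 for Mt1 (-0.21 to 0.10), -0.02 for Aldoc (-0.14 to 0.14) and -0.04 for Mt3 (-0.16 to 0.08). The other wells held 136 Apoe counts and the astrocyte-like wells 500. Slc1a3 had counts in 4 mice, where its mean correlation was 0.47 with Mt2 (-0.06 to 0.68), 0.23 with Mt1, 0.23 with Aldoc and 0.18 with Mt3. Without the astrocyte-like wells it was 0.14 with Mt2 (-0.06 to 0.29, positive in 3 of 4 mice), -0.001 with Mt1, 0.02 with Aldoc and 0.04 with Mt3.

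**Figure D3:**
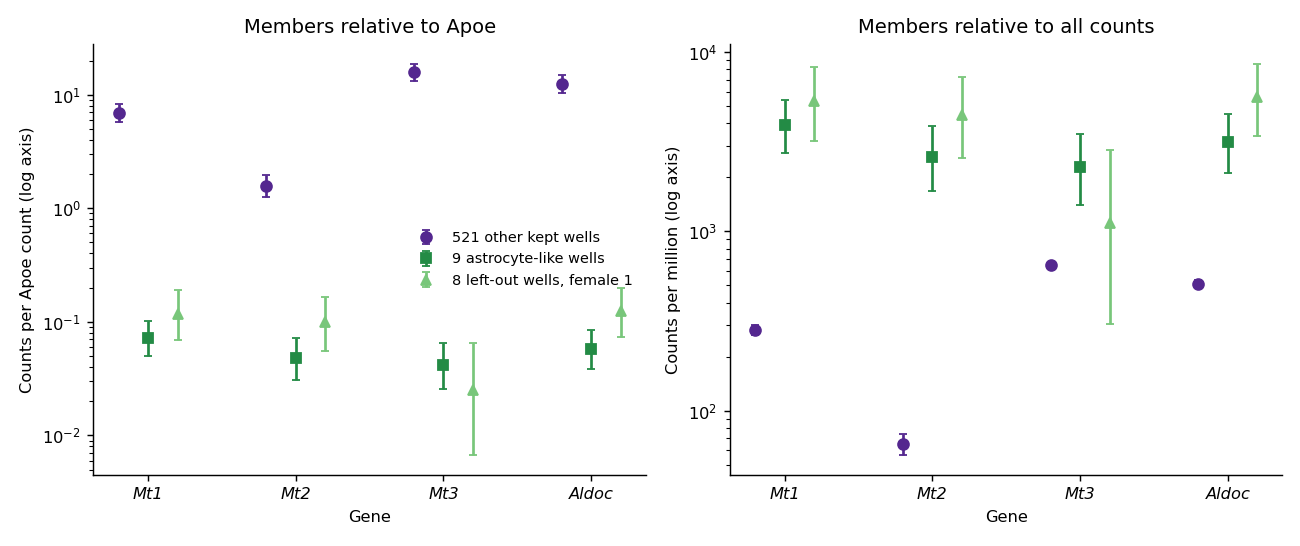
Left, counts of each gene per count of Apoe and right, level in CPM, both on log axes, in the 521 other kept wells, the 9 astrocyte-like wells and 8 wells of female 1 with under 500 genes. Bars are exact 95% intervals of counting error; relative to Apoe the 521 wells lie above the other wells for each gene, and relative to all counts below the astrocyte-like wells.

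Wells with and without an Apoe count were compared within the 5 mice that had at least 5 of each, with the mouse as a block. Mt1 stood at 498, 443 and 379 CPM in males 1 to 3 and 649 and 250 CPM in females 1 and 3 in wells with Apoe, against 247, 196 and 317 CPM in those males and 472 and 157 CPM in those females in wells without. The ranges overlapped, and wells with Apoe were higher in 5 of 5 mice. It rose by 0.72 (SE 0.141, edgeR adjusted p 0.0311) on the log2 scale, 1 of 5 genes to pass of 3869 (0.129%), Apoe itself among them. Without the astrocyte-like wells the difference was 0.48 and did not pass (edgeR adjusted p 0.669), and by DESeq2 it was 0.75 (adjusted p 0.166). It did not pass in edgeR without female 1 (0.83, adjusted p 0.21), female 3 (0.73, 0.0884), male 1 (0.61, 0.272) or male 2 (0.64, 0.255), and passed without male 3 (0.80, 0.00231). Mt2 (1.15, SE 0.372), Mt3 (0.05, SE 0.118) and Aldoc (-0.03, SE 0.131) did not pass. Mt2 was at 0 in the 6 Apoe wells of male 3; without that mouse it passed at 1.54 (edgeR adjusted p 0.00376), and without male 2 it was 0.62 (adjusted p 0.952). Only female 1 had 5 wells with Slc1a3, so that gene allowed no fit. In female 1 the 8 wells with a Slc1a3 count had 2239 CPM of Mt1 and 2111 CPM of Mt3, against 449 and 843 CPM in its 80 wells without, with median totals of 1039 and 5510.5 counts. Astrocyte-like wells gave 73.3% of the Slc1a3 counts of female 1, so these classes also differ in kind of well.

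Pdyn encodes prodynorphin, the precursor of dynorphin opioid peptides, and marks a part of the VMH neurons. In wells with a Pdyn count Mt1 and Mt3 were higher than in wells of the same mouse without one. Mt1 had a median of 386 CPM (292 to 593) in Pdyn wells, against 173 CPM (80.4 to 416) in the others, and was higher in 6 of 6 mice. It rose by 1.03 on the log2 scale (SE 0.120, edgeR adjusted p 1.02e-07). The 2 ranges overlapped, but within each mouse Pdyn wells had the higher level.

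Mt3 had a median of 779 CPM (611 to 989) in Pdyn wells and 509 CPM (416 to 797) in the others, again higher in 6 of 6 mice, and rose by 0.57 (SE 0.0839, edgeR adjusted p 1.98e-05). By edgeR, 77 of 4200 genes passed in this comparison (1.83%), 46 of them higher (1.1%) and 31 lower (0.738%), and Mt1 ranked 4 and Mt3 ranked 6 by p, behind Pdyn itself at 1. Mt3 had a count in 93.9% ± 3.23 of Pdyn wells, against 75.4% ± 8.17 of the others. Mt1 had a count in 62.1% ± 9.36 against 38.5% ± 12.5 (SD, n = 6 mice).

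Aldoc and Mt2 did not pass. Aldoc had medians of 579 CPM (412 to 819) and 449 CPM (370 to 693) in wells with and without Pdyn, and differed by 0.33 (SE 0.0960, edgeR adjusted p 0.0649), higher in 5 of 6 mice. Mt2 had medians of 102 CPM (37.0 to 170) and 42.1 CPM (20.1 to 119), and differed by 0.66 (SE 0.249, edgeR adjusted p 0.232), higher in 4 of 6 mice and lower in male 2 and female 1. Leaving out 1 mouse moved Mt2 both ways, to 1.04 with a call without male 2 (edgeR adjusted p 0.00699) and to 0.38 without male 3 (adjusted p 0.716). No astrocyte-like well had a Pdyn count, and their part in the result was not tested. Without those wells, an alternative chosen after seeing the data, Mt2 rose by 1.15 (edgeR adjusted p 0.00627) and Aldoc by 0.39 (adjusted p 0.0271), and Mt1 and Mt3 by 1.21 and 0.60.

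Wells with a count of Pdyn, Nr5a1 or Tac1 were deeper in each mouse. For Pdyn this came to median totals of 9807, 6399 and 8400 counts in males and 6073, 2285 and 7710 in females, against 7243, 5745 and 7151 in males and 4922, 2063 and 5936 in females. After drawing 1986 counts per well Mt1 rose by 1.19 (edgeR adjusted p 1.4e-05) and Mt3 by 0.53 (adjusted p 0.0431), against 1.21 and 0.60 without the astrocyte-like wells at full depth, since thinning leaves those wells out too. The correlation of Mt1 with Pdyn was 0.22 on average over mice, and 0.23 after thinning; for Mt3 it was 0.26 and 0.20, each positive in 6 of 6 mice.

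**Figure D4:**
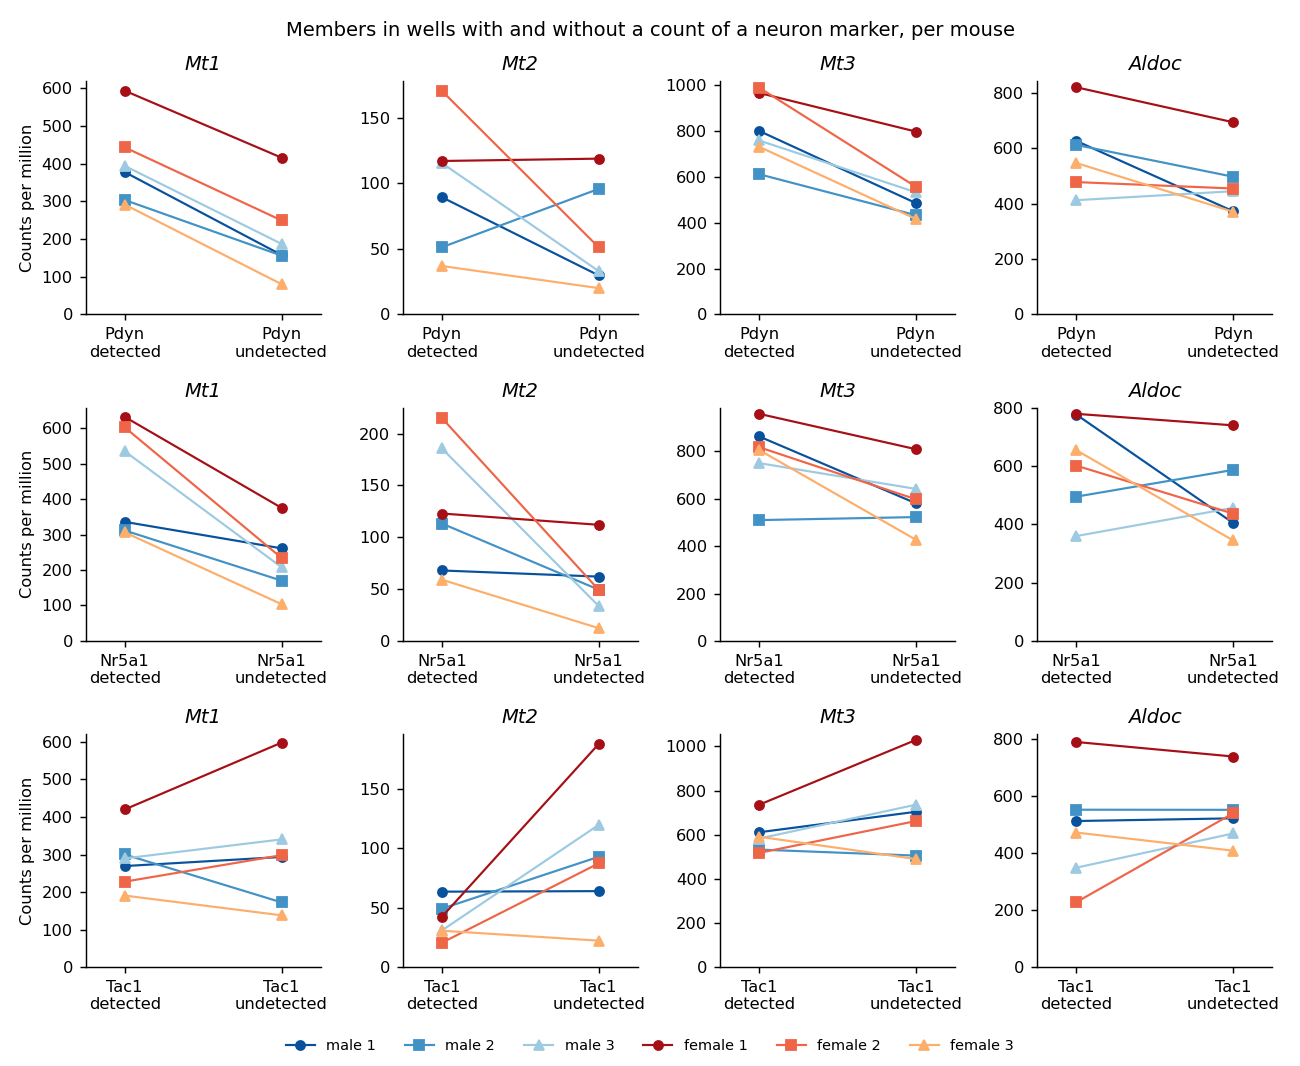
Level of each gene (CPM) in wells with (left) and without (right) a count of Pdyn (top row), Nr5a1 (middle) and Tac1 (bottom), 1 line per mouse. Mt1 is higher in wells with the count in 6 of 6 mice for Pdyn and Nr5a1, and Mt3 in 6 of 6 for Pdyn and 5 of 6 for Nr5a1; the lines for Tac1 run both ways.

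Nr5a1 encodes SF-1, the nuclear receptor that defines the VMH and whose promoter drove Cre here. All 3 metallothioneins passed in wells with an Nr5a1 count. Mt1 had a median of 435 CPM (306 to 631) in wells with Nr5a1 and 221 CPM (104 to 375) in wells without, and rose by 0.95 (SE 0.114, edgeR adjusted p 2.44e-08), higher in 6 of 6 mice. Mt2 had medians of 118 CPM (59.1 to 215) and 49.4 CPM (12.3 to 112), and rose by 1.18 (SE 0.238, edgeR adjusted p 0.00199), higher in 6 of 6 mice. The Mt2 levels were close in female 1 (123 and 112 CPM) and male 1 (68.0 and 62.1 CPM). In female 2 they rested on 5 and 8 counts, and 1 well held 30% of the Mt2 counts of male 2. Mt3 had medians of 811 CPM (510 to 958) and 589 CPM (427 to 809), and rose by 0.38 (SE 0.0859, edgeR adjusted p 0.00742), higher in 5 of 6 mice.

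Aldoc did not pass, at medians of 629 CPM (360 to 780) with Nr5a1 and 447 CPM (345 to 740) without and a difference of 0.28 (SE 0.109, edgeR adjusted p 0.253), higher in 4 of 6 mice. Its difference was 0.09 without male 1 (edgeR adjusted p 0.856), and 0.40 with a call without male 2 (adjusted p 0.0451). Of 4002 genes 52 passed by edgeR (1.3%), 36 of them higher (0.9%). Mt2 did not pass without male 3 (0.73, edgeR adjusted p 0.253), and Mt3 did not pass without female 3 (0.26, adjusted p 0.301) or without male 1 (0.32, adjusted p 0.0904). By DESeq2 neither passed (adjusted p 0.0744 for Mt2 and 0.179 for Mt3), and after thinning Mt3 differed by 0.41 (edgeR adjusted p 0.70). After thinning Mt2 was too sparse to be tested with Nr5a1, Pdyn or Tac1, so its differences have no fit at equal depth. Mt1 passed with any 1 mouse left out, and after thinning kept its size at 0.95 but not its call (adjusted p 0.072), with 1317 genes tested.

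Tac1 encodes the precursor of substance P and neurokinin A and marks a part of the VMH neurons that overlaps that of Pdyn. Of the wells with a Tac1 count, 80 also held a Pdyn count and 113 did not. Of the wells without a Tac1 count, 144 held a Pdyn count and 193 did not, a similar share. In wells with Tac1 Mt2 fell: its median was 36.8 CPM (20.7 to 63.6) in these and 90.1 CPM (22.5 to 188) in wells without, lower in 5 of 6 mice. The difference was -1.06 (SE 0.241, edgeR adjusted p 0.0106), in a comparison where 41 of 4393 genes passed (0.933%), 19 of them lower (0.433%). The Mt2 levels with and without Tac1 were close in male 1 (63.6 and 64.0 CPM) and rested on 1 and 12 counts in female 2. Female 3 went the other way, at 30.8 and 22.5 CPM. No astrocyte-like well had a Tac1 count. Without those wells the difference was -0.84 and did not pass (edgeR adjusted p 0.0981), and in wells with neither glial gene it was -0.50 (adjusted p 0.666). Without female 1 it was -0.79 (adjusted p 0.113), without male 3 it was -0.83 (adjusted p 0.26), and by DESeq2 it was -1.04 (adjusted p 0.694).

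The other 3 genes did not pass between wells with and without Tac1. The differences were -0.05 (SE 0.118) for Mt1, -0.17 (SE 0.0800) for Mt3 and -0.07 (SE 0.0880) for Aldoc, with 95% intervals of -0.28 to 0.18, -0.33 to -0.01 and -0.25 to 0.10. Their edgeR adjusted p were 0.946, 0.533 and 0.858. The Mt1 interval for Tac1 lies below that for Pdyn, 0.79 to 1.26, but the difference between the comparisons was not tested, and they share wells. Wells with Tac1 were also not alike. Mt1 averaged 414 ± 71.4 CPM in those with Pdyn (5 mice) and 191 ± 124 CPM in those without (6 mice). For Mt3 the averages were 748 ± 91.5 and 479 ± 141 CPM (SD). In wells without Tac1, Mt1 averaged 379 ± 194 CPM with Pdyn and 224 ± 132 CPM without (6 mice). These classes were not tested.

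Pdyn and Nr5a1 were not independent of each other: Nr5a1 rose by 0.72 in Pdyn wells (edgeR adjusted p 0.0477), where Tac1 fell by 0.85 (adjusted p 0.0114). Levels are therefore also given by both genes at once, with no test. Mt1 averaged 504 ± 175 CPM in wells with both (5 mice with at least 5 such wells), 321 ± 134 CPM with Pdyn alone, 348 ± 246 CPM with Nr5a1 alone and 180 ± 120 CPM with neither (SD; n = 6 mice for the last 3 classes). Mt3 averaged 882 ± 184, 736 ± 200, 583 ± 199 and 522 ± 115 CPM in the same order. In each of the 5 mice with both classes, wells with both genes were above wells with neither for Mt1 and for Mt3. Aldoc averaged 684 ± 191 CPM with both and 475 ± 134 CPM with neither, and in male 3 it was 389 CPM with both, against 487 CPM with neither.

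**Figure D5:**
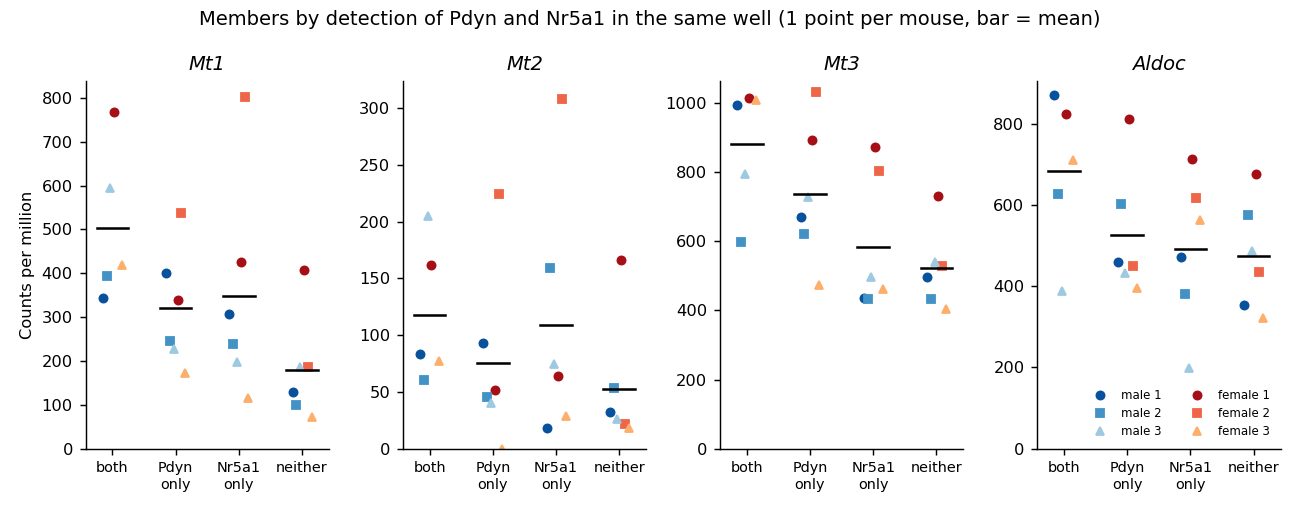
Level of each gene (CPM) in wells grouped by whether they held a count of Pdyn, of Nr5a1, of both or of neither; points are mice with at least 5 wells of the class and bars are their means. Mt1 and Mt3 are highest on average in wells with both and lowest in wells with neither.

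Among wells with neither Pdyn nor Nr5a1, those with a count of Slc17a6, the vesicular glutamate transporter of VMH neurons, had Mt1 at 146 ± 58.0 CPM and Mt2 at 22.1 ± 17.1 CPM (SD, n = 6 mice). Wells with a count of Gad1 or Gad2, which make GABA, and none of Slc17a6 numbered 25, and 2 mice had at least 5. In these Mt1 was 19.1 and 69.7 CPM in males 1 and 2, and Mt2 was 0 in both, while Mt3 was 535 and 767 CPM and Aldoc 306 and 174 CPM. These levels come from 8 wells of male 1 and 5 of male 2. The Mt1 values rest on few counts, and so few wells cannot show that Mt2 is absent. Wells with Slc17a6 and neither Gad gene had Mt1 at 314 ± 106 CPM, Mt3 at 663 ± 146 CPM and Aldoc at 544 ± 132 CPM (SD, n = 6 mice). With 2 mice this difference was not tested.

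Genes of related pathways were read from the same fits, gene by gene and with no test of a list as a whole. Of 27 genes of metal transport and zinc handling, 7 were tested in the Pdyn comparison and 0 passed, where 1.83% of all genes did, a share that 0 of 7 cannot be told apart from. Sod1, the copper and zinc superoxide dismutase, differed by 0.12 (SE 0.0694, edgeR adjusted p 0.541), and Cox17, a copper chaperone, by 0.14 (SE 0.107, adjusted p 0.742). The list's median was -0.08, against -0.02 over all genes tested. Of 17 other glycolytic genes 14 were tested and 0 passed, with 8 above 0 and a median of 0.04. Gapdh differed by 0.06 (SE 0.0566, edgeR adjusted p 0.797) and Aldoa, the ubiquitous aldolase, by 0.07 (SE 0.0725, adjusted p 0.807).

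Of 19 genes of the oxidative stress response 12 were tested. Prdx6, a peroxiredoxin, rose in Pdyn wells by 0.76 (SE 0.189, edgeR adjusted p 0.0204), and Sod2, the mitochondrial superoxide dismutase, rose in Nr5a1 wells by 0.57 (SE 0.153, adjusted p 0.0395). They were the single member to pass in each, and 9 of the 12 lay above 0 in both comparisons, with medians of 0.08 and 0.05. Glucocorticoids induce Mt1 and Mt2, and 1 of 12 glucocorticoid-induced genes was expressed enough to be tested with Pdyn and Nr5a1: Tsc22d3 differed by -0.03 (SE 0.178) and 0.34 (SE 0.177) and did not pass (edgeR adjusted p 0.982 and 0.484). Of 10 heat shock genes 7 were tested and 0 passed in either comparison, where 1.83% of all genes tested passed with Pdyn and 1.3% with Nr5a1. Of 12 immediate early genes, which mark acute activation and stress of dissociation, 2 were tested with Pdyn and 3 with Nr5a1, and 0 passed; the 3 lay above 0 with Nr5a1, with a median of 0.34. In the Nr5a1 comparison, where 1.3% of all genes passed, 0 of 7 tested metal genes and 0 of 14 glycolytic genes did. There 12 of the 14 glycolytic genes lay above 0, with a median of 0.12, and 1 of the 7 metal genes, with a median of -0.08, against a median of -0.003 over all genes. In the Tac1 comparison 12 of 14 glycolytic genes also lay above 0, with a median of 0.11 against -0.001 over all genes. In the Tac1 and Apoe comparisons 0 members of any of these 6 lists passed, where 0.933% and 0.129% of all genes tested did. With 1 to 14 genes tested per list, 0 cannot be told apart from those shares.

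Markers of cell types were followed in the same fits, where 1.83% of all genes tested passed with Pdyn, 1.3% with Nr5a1 and 0.933% with Tac1. Of 12 neuron markers 10 were tested with Pdyn: Nefm, Nefl and Snap25 rose by 0.71, 0.40 and 0.29, and Syt1 fell by 0.59 (edgeR adjusted p 0.00986, 0.0114, 0.0461 and 0.000783). With Nr5a1 Snap25 rose by 0.37 (edgeR adjusted p 0.00404), and of the 8 VMH neuron markers 7 were tested, 4 higher, Nr5a1 itself among them, and 1 lower. Pdyn rose by 0.74, Adcyap1, the gene of the neuropeptide PACAP, by 0.67 and Tac1 by 0.57 (adjusted p 4.15e-05, 0.00626 and 0.00405), and Rprm fell by 0.63 (adjusted p 0.0356). With Tac1 Nefm rose by 0.66, Nefl by 0.35 and Adcyap1 by 0.82 (edgeR adjusted p 0.0232, 0.0216 and 0.000715). Of 19 astrocyte markers 1 was abundant enough to be tested with Pdyn and with Nr5a1. This was Clu, a secreted chaperone, which differed by -0.11 (SE 0.0935, edgeR adjusted p 0.744) with Pdyn and fell with Nr5a1 by 0.33 (SE 0.0883, adjusted p 0.0351). The tanycyte, oligodendrocyte, microglial and endothelial lists had 0 tested genes in both. The part of these markers in the differences of the metallothioneins was not tested.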

How the data were processed

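Single cells of 6 mice were counted per gene in 96 wells per mouse. Per the labels' protocols, dissected hypothalamus was dissociated with papain and libraries used a BD Precise kit. The deposited values are raw counts, 1 table of genes by wells for each mouse, with no normalization by the authors visible in them. The submitters' processing notes name HTSeq and mm10; the aligner, the versions, the strand and whether a count is a molecule or a read were not found in what was read. Wells with at least 500 genes with a count and under 25% mitochondrial counts were kept; all 46 left out had too few genes.

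Cells are not replicates, so counts were summed per mouse, or per mouse and class of wells with and without a marker count (at least 5 wells in each class), with the mouse as a block. Sums were tested with edgeR 4.0.16 in R 4.3.3 (quasi-likelihood, TMM, filterByExpr, Benjamini-Hochberg threshold 0.05 over all genes tested). Differences are on the log2 scale, with detected wells over undetected ones and males over females. CPM were computed from the sums, and 95% intervals of log2 differences are normal approximations from the SE. Shares were compared by exact permutation with Python 3.11.15; intervals of counts and shares are exact, at 0.95 confidence. Correlations used log2(counts per 10000 + 1). Thinning drew 1986 counts per well (10th percentile). DESeq2 1.42.0, other scalings, filters, depths and leaving out each mouse were alternatives. An edgeR self-test on simulated counts recovered 21.1% of genes changed by 1 on the log2 scale and 94.0% of those changed by 2 for sex (6794 genes), and 93.8% and 100% for Pdyn (4200 genes).

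The genes, lists and tests were chosen with earlier results of these data known. Named were the 4 genes, Apoe, Slc1a3, Tac1, Pdyn and Nr5a1, up to 5 most correlated genes per member, and per list up to 4 that passed or else 2 at the highest level; the classes by Slc17a6, Gad1 and Gad2 were added after values were seen. A planned astrocyte-like cluster did not form, so the rule on marker counts, set after seeing the data, took its place. Same-numbered males and females did not deviate together. No doublet caller was run.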

Additional observations from a re-analysis of the deposited data

Results flagged for a closer look

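Female 1 stood apart from the other 5 mice in 3 marker genes. Its Apoe level was 997 CPM, against 9.04 to 194 CPM in the others, its Slc1a3 level was 34.0 CPM against 0 to 5.60, and its Nr5a1 level was 163 CPM against 53.6 to 80.3. It held 7 of the 9 astrocyte-like wells, and Mt1, Mt2, Mt3 and Aldoc each had their highest level in it. Female 2, the shallowest plate, stood apart in the share of wells with a count, at 64.4% for Mt3 against 80.2% to 88.6% and 49.4% for Aldoc against 75.6% to 86.4%, and in the correlation of Mt1 with Aldoc, at 0.0817 against 0.33 to 0.45. After thinning, its share of wells with a count was 65.3% for Mt3, within the other mice at 59.3% to 82.9%, and 44.9% for Aldoc, against 44.6% to 72.4%. In all, 40 sets of values were examined and 6 had such a mouse, where chance gives about 5%.

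Wells left out for few genes held members in female 1. Its 8 such wells, of 3595 counts in all, held 19 counts of Mt1, 16 of Mt2, 4 of Mt3 and 20 of Aldoc, with 161 of Apoe, while the 38 wells left out in the other mice held 1045 counts and 1 count of a member, of Mt1. The mix was 48.7% Mt1, 41.0% Mt2 and 10.3% Mt3. Near the limit of 500 genes, the 3 wells just outside, all of female 1, had 430 to 483 genes and 1, 2 and 6 counts of Mt1, and the 3 wells just inside had 522 to 535 genes and 0, 2 and 0.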

How the results depend on the processing

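Of the values of the 4 genes under other settings, 229 kept their sign and side of the threshold, 30 lost a call, 14 gained one and 24 changed sign, each of the last for a difference that passed in neither fit. The Pdyn calls of Mt1 and Mt3 held with any 1 mouse left out, by DESeq2 and after thinning, which also leaves out the astrocyte-like wells. Counts of genes called varied more. For sex, where edgeR called 0 genes, DESeq2 called 4, no filter on low counts gave 20, and leaving out 1 mouse gave 0 to 3. For Tac1 (41 genes) DESeq2 called 7, no filter 75, thinned wells 7, wells with neither glial gene 22, wells with Slc17a6 26, and leaving out 1 mouse 21 to 50. For Pdyn (77) DESeq2 called 28, thinned wells 7, and leaving out 1 mouse 42 to 85. For Nr5a1 (52) DESeq2 called 8, thinned wells 2, Slc17a6 wells 21, and leaving out 1 mouse 25 to 47. For Apoe (5) DESeq2 called 1, no filter 99, wells with at least 1000 genes 1, wells that are not astrocyte-like 1, Slc17a6 wells 2, and leaving out 1 mouse 1 to 10. Thinning tests fewer genes; the cause of the other shifts was not tested.

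With no replicate block for the mouse, 1 gene was called for Tac1, 2 for Pdyn, 1 for Nr5a1 and 1 for Apoe, none of them Mt1, Mt2, Mt3 or Aldoc, and Aldoc differed by 0.00952 with Apoe. Males and females of 1 number share only that number: their deviations correlated at -0.124, -0.0856 and 0.160, and the sex fit with a replicate block called 0 genes.

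Signs changed as follows. For sex, thinning gave 0.15 for Mt1 and -0.0231 for Mt2, and leaving out 1 mouse gave -0.51 to 0.37 for Mt1, -0.35 to 0.82 for Mt2, -0.27 to 0.11 for Mt3 and -0.29 to 0.17 for Aldoc. For Tac1, Mt1 was 0.0350 with at least 1000 genes per well, 0.15 thinned, 0.0399 without astrocyte-like wells, 0.13 in wells with neither glial gene, and -0.19 to 0.0847 with 1 mouse left out; Aldoc was 0.19 thinned and 0.00967 in wells with neither glial gene. Aldoc was -0.0884 for Nr5a1 after thinning. For Apoe, Mt3 was -0.19 with no filter, -0.0161 with at least 1000 genes, -0.0331 without astrocyte-like wells and -0.0736 to 0.11 with 1 mouse left out, and Aldoc was -0.15 to 0.0600 with 1 mouse left out. The sex difference in shares of wells was 8.36 points for Mt1 at 2 counts or more, -5.92 for Mt3 and -6.96 for Aldoc after thinning, and with 1 mouse left out -9.24 to 8.18 for Mt1, -2.19 to 7.97 for Mt2 and -1.01 to 17.46 for Aldoc. Thinned correlations were 0.297 for Mt1 and Mt2, 0.164 for Mt1 and Mt3, 0.132 for Mt1 and Aldoc, 0.0765 for Mt2 and Aldoc and 0.139 for Mt3 and Aldoc; without astrocyte-like wells Mt1 and Mt2 stood at 0.43.

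The planned leaving out of an astrocyte-like cluster was not run, since none formed, and the Apoe comparison had too few mice with 5 wells of each class for thinning or for detection at 2 counts; wells with neither glial gene hold no Apoe class. A count of 0 at these depths does not show that a gene is absent from a cell, and wells without a marker count include cells that express it. With 3 mice of each sex, the simulated sex differences of 1 on the log2 scale were recovered in 21.1% of genes, at a dispersion common to all genes. The recovery for Mt1, Mt2, Mt3 or Aldoc was not simulated.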

Other observations

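The spread of Mt1 counts over wells is given per mouse. After thinning to 1986 counts per well, the variance of its counts divided by their mean was 1.88, 1.97 and 1.90 in males 1 to 3 and 1.30, 1.29 and 1.27 in females 1 to 3, where 1 is the value of counting error alone. Over all genes with a mean of at least 0.1 count, not matched to Mt1 in level, the median was 0.946 to 1.02 and the 90th percentile 1.29 to 1.33. The mean thinned count overlapped, at 0.533, 0.422 and 0.648 in males and 0.697, 0.490 and 0.267 in females. For Aldoc the ratio was 1.74, 2.26 and 1.57 in males and 1.14, 2.26 and 1.67 in females, and for Mt3 1.22, 0.928 and 1.02 in males and 1.29, 1.56 and 1.11 in females, and both overlapped. Tac1 did not overlap either, in the opposite direction, with a mean ratio of 7.42 ± 1.32 in males and 10.1 ± 0.95 in females (SD, n = 3 each). Unlike that of Mt1, its mean thinned count did not overlap, at 1.48, 0.602 and 1.05 in males and 2.43, 2.41 and 1.57 in females. The Tac1 ratios of the sexes were therefore taken at unlike levels. The Mt1 values were noticed among several genes in 1 random draw and were not tested; 3 against 3 mice allow no exact permutation p under 0.1. The highest single well held 24, 9 and 17 counts of Mt1 in males and 13, 5 and 11 in females before thinning.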
